A study of Mus musculus with 28 samples.

Results

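The 10 genes Pdgfra, Cspg4, Ptprz1, Vcan, Lhfpl3, Pcdh15, C1ql1, Matn4, Cacng4 and Tnr are used as markers of oligodendrocyte precursor cells in the mouse brain. They were taken as a named list by a rule that used no measured value, although earlier results of these data were known when the list was drawn up, and were matched to the tables by Ensembl gene identifier. All 10 were among the 55414 genes listed, and all 10 were among the 12423 genes that passed the filter on low counts.

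Whole-brain RNA of 28 mouse samples, 7 in each of 4 groups, was measured by QuantSeq, which reads each transcript near its polyadenylated end. All groups but the naive one had been fed cuprizone, which chelates copper, kills mature oligodendrocytes and so removes myelin. Myelin is rebuilt once feeding stops. Naive (coded CPZ0), peak demyelination (CPZ5) and remyelination (CPZ6+1) samples came from TNFR1ff mice, which carry floxed TNFR1 alleles and had been backcrossed onto C57BL/6. The knockout samples were also taken in remyelination (CPZ6+1), from mgTNFR1KO mice (Cx3cr1-CreER.Tnfr1ff), in which the Cre recombinase had removed TNFR1 from microglia after tamoxifen. All 4 groups therefore carried the floxed alleles, and the deletion was made in the knockout group alone. The Cx3cr1-CreER construct is named for the knockout mice only, so its part and that of the deletion cannot be told apart. The labels give no unit for the stage codes, no age and no sex, and do not say whether the control groups received tamoxifen or how many animals stand behind the samples. The p-values below measure the spread between these samples, which may be technical. The knockout group was sampled in remyelination only, so its differences from naive and from demyelinated brains combine stage and genotype, and these cannot be told apart there.

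Oligodendrocyte precursors are dividing glial cells spread through grey and white matter. They are held in the precursor state in part by platelet-derived growth factor acting on the receptor Pdgfra, and they lose Pdgfra and the NG2 proteoglycan encoded by Cspg4 as they differentiate. After demyelination, precursors are the main source of the new oligodendrocytes that remyelinate axons. Several of the markers are also made by other cells. Ptprz1 is made by astrocytes, Cspg4 by pericytes, Pdgfra by meningeal fibroblasts, and Tnr and Cacng4 by neurons. In whole-brain RNA, fewer cells of a type and less RNA per cell cannot be told apart.

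Library totals ranged from 1522919 to 3137252 counts, so that 3 counts, taken as the floor of detection, corresponded to 0.956 to 1.97 CPM, the unit of counts scaled to library size. Levels are CPM on library sizes scaled by the trimmed mean of M-values (TMM), and the floor covers counting error only. Intervals printed below are 95% intervals of the edgeR fit and include the spread between libraries. Each gene is compared with itself across groups, because 3′ tag counts are not divided by length. A single unnamed gene, ENSMUSG00000119584.1, held the largest share of counts, from 1.33% in knockout library 1 to 25.54% in naive library 1. Values that rest on these 2 libraries are given with and without them for the summed level, Pdgfra, Ptprz1, Pcdh15, Lhfpl3 and the knockout mean of C1ql1. Tnfrsf1a (ENSMUSG00000030341.18), the deleted gene, had 13.3 ± 3.04 CPM in naive, 27.0 ± 4.85 in demyelinated, 23.0 ± 4.43 in remyelinating and 21.9 ± 4.18 in knockout libraries (mean ± SD, n = 7). No difference passed between knockout and control in remyelination (adjusted p = 0.962). A 3′ tag may lie outside the deleted part and cells other than microglia express the gene, so this level does not check the deletion. Neuronal markers were abundant in every group of this brain tissue, with a summed level of 5940 to 6950 CPM over 12 genes.

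The precursor markers kept nearly the same summed level in the naive, demyelinated and remyelinating brain while most genes of mature oligodendrocytes fell and then rose. The 10 markers together had 517 ± 26.1 CPM in naive, 521 ± 46.2 in demyelinated, 512 ± 39.6 in remyelinating and 482 ± 60.9 CPM in knockout libraries (SD, n = 7). The ranges were 470 to 548, 468 to 596, 451 to 566 and 360 to 541 CPM, and each pair of groups overlapped. Ptprz1 made up a large share of these sums, and without it the other 9 markers had 245 ± 16.1, 242 ± 14.6, 229 ± 16.5 and 224 ± 21.1 CPM. In naive libraries the means of Ptprz1, Tnr and Cacng4 were 272, 72.8 and 62.7 CPM, and astrocytes or neurons also make these. How much of the sums, and of the ratio below, came from precursors was not tested. The lowest sum, 360 CPM, was that of knockout library 1. Without naive library 1 and knockout library 1 the sums were 525 ± 16.9 in naive and 503 ± 30.9 CPM in the knockout group (n = 6). A list of 20 genes of mature oligodendrocytes had summed levels of 7360 ± 391, 3530 ± 369, 6630 ± 612 and 7230 ± 460 CPM. Demyelinated libraries, at 2940 to 4110 CPM, all lay below every library of the other groups, of which the lowest had 5720 CPM. For every 100 CPM of mature genes there were 7.05 ± 0.563 CPM of precursor markers in naive, 15.0 ± 2.19 in demyelinated, 7.80 ± 1.15 in remyelinating and 6.68 ± 0.868 in knockout libraries. The ratio of 12.3 to 17.4 in demyelinated libraries came with the lower mature sum, at a precursor sum that overlapped that of naive libraries.

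**Figure D1:**
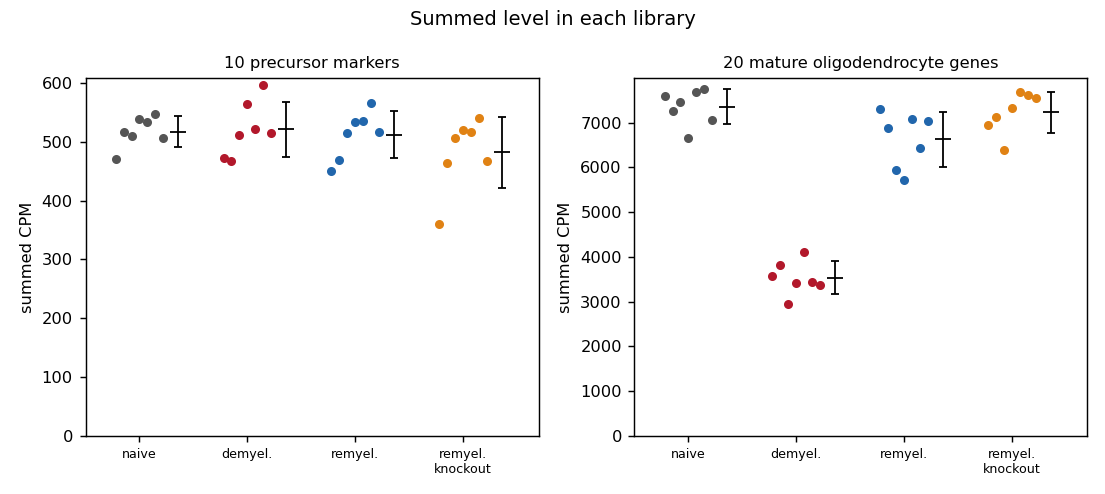
Summed CPM of the 10 precursor markers (left) and of 20 mature oligodendrocyte genes (right) in each of 28 libraries. Points are libraries, and the bar beside them is the mean ± SD over 7 libraries. The precursor sums of all groups overlap, whereas the 7 demyelinated libraries lie below all others for the mature genes.

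At the peak of demyelination none of the 10 markers passed the test against naive brain. The threshold was an adjusted p of 0.05 in the edgeR quasi-likelihood test over 12423 genes, here and in all comparisons below. In this comparison 2% of all genes tested were called, so a list of this size would hold few calls at the background rate. At an unadjusted p under 0.05, 1 of 10 markers passed, against 13.3% of all genes. The median log2 fold change of the markers was -0.06, with 5 higher and 5 lower, beside -0.01 over all genes. The same test called 17 of 20 mature genes, 16 lower and 1 higher, with a median of -1.25. Mal, a myelin lipid-raft protein, had a log2 fold change of -2.01 (SE 0.114, adjusted p = 1.77e-16), and Mbp, myelin basic protein, one of -0.94 (SE 0.0962, adjusted p = 2.01e-09). The lists and the genes in them were chosen with earlier results of these data known, and the mature list is shown as a scale for the precursor values, not as independent evidence.

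In remyelination the precursor markers likewise had no call. Against demyelination 0 of 10 passed, where 0.386% of all genes were called, and 0 of 10 had an unadjusted p under 0.05, against 6.65% of all genes. Against naive brain 0 of 10 passed, with a background of 0.628%, and 0 of 10 had an unadjusted p under 0.05, against 10.4% of all genes. Median log2 fold changes of the markers were -0.03 and 0.02. Over the same step from demyelination to remyelination, 12 of 20 mature genes rose, with a median of 0.93. Mog, a surface protein of the myelin sheath, rose by 1.16 (SE 0.132, adjusted p = 2.01e-07). No mature gene passed between remyelination and naive, where 9 of 20 had an unadjusted p under 0.05. Anln, a cytoskeletal protein of myelin, was nearest, at -0.90 (adjusted p = 0.0597, edgeR), and was called by DESeq2 (adjusted p = 0.0195).

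**Figure D2:**
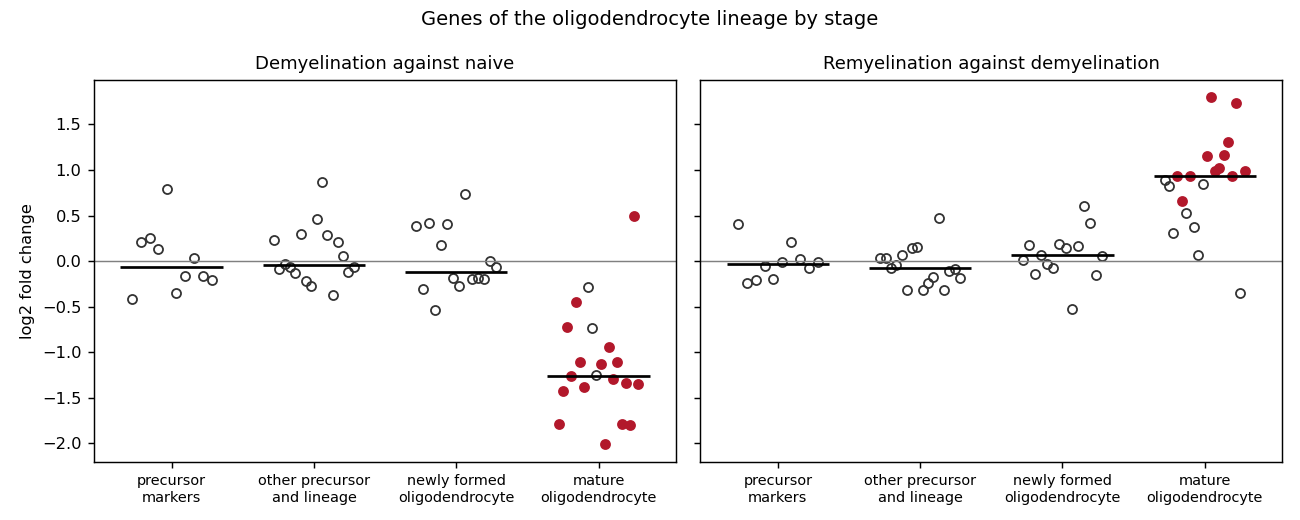
Log2 fold change of single genes in 4 lists of the oligodendrocyte lineage, for demyelination against naive (left) and remyelination against demyelination (right). Filled red points passed an adjusted p of 0.05, open points did not, and the line is the list's median. Red points appear in the mature list only in both panels, with medians of -1.25 and 0.93.

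Within remyelination the knockout group gave no call among the markers against its control. Between knockout and control remyelination 0 of 10 passed, where 0.0483% of all genes were called. A single marker, Pcdh15, had an unadjusted p under 0.05, against 7.49% of all genes. The median log2 fold change was -0.16, with 4 higher and 6 lower, beside 0 over all genes. The 95% interval of every marker lay within a 2-fold change in either direction, as did that of 87.7% of all genes. Differences of that size or larger in these markers are outside their intervals in this comparison, whereas smaller ones are not, and for 7 of 10 the interval reached past 1.5-fold.

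The knockout group differed from naive brain in 1 of 10 markers, Pcdh15, which was lower. The background in this comparison was 3.24%. At an unadjusted p under 0.05, 2 of 10 markers passed, Pcdh15 and Vcan, against 18.9% of all genes, which is near the background. Against demyelination 0 of 10 passed, with a background of 0.604%, and 2 of 10 (Pcdh15 and Lhfpl3) had an unadjusted p under 0.05, against 10.7% of all genes. A test of any difference among the 4 groups called none of the 10 markers, where 2.46% of all genes were called. Its smallest adjusted p among them was that of Pcdh15, 0.0964, and Pcdh15 was also the only one with an unadjusted p under 0.05, against 15.9% of all genes. The 3 comparisons that include the knockout group share its 7 libraries, and the 3 that include naive share theirs, so these results are not independent of each other.

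**Figure D3:**
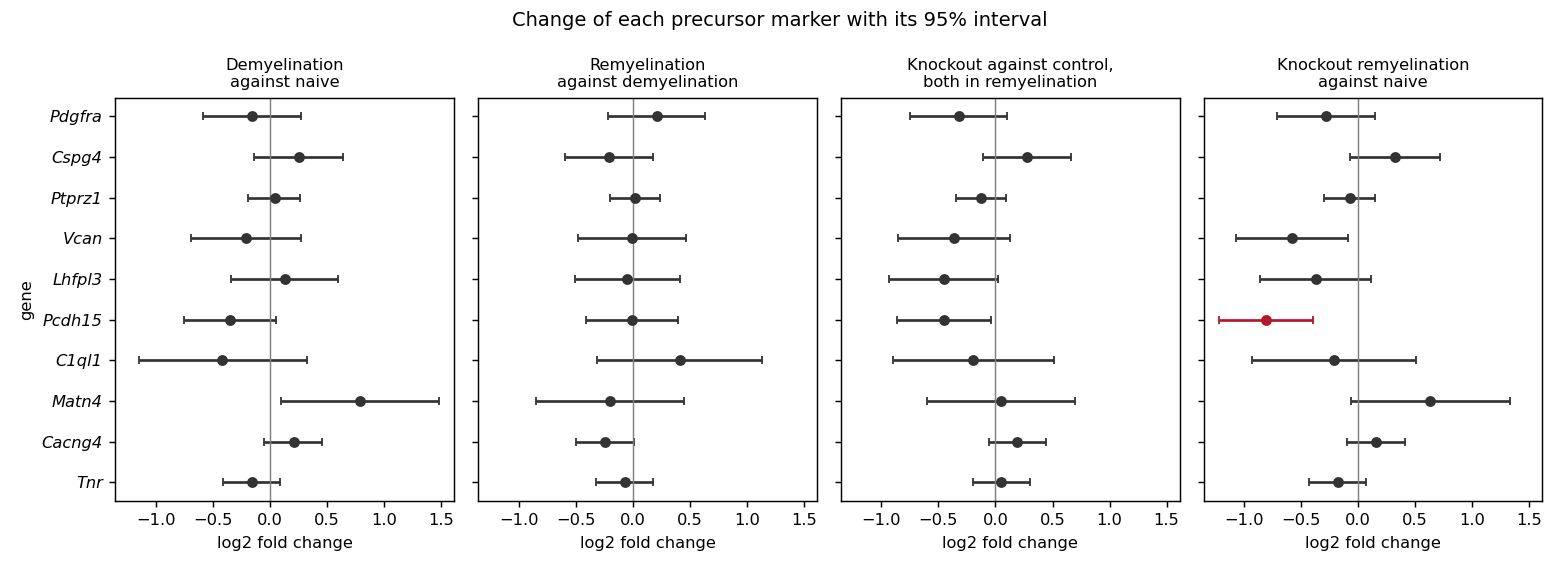
Log2 fold change (horizontal axis) of each of the 10 markers with its 95% interval in 4 comparisons. The single red point passed an adjusted p of 0.05. It is Pcdh15 in the knockout group against naive, at -0.81 with an interval of -1.22 to -0.40.

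Pdgfra (ENSMUSG00000029231.16), the receptor for platelet-derived growth factor A, ranged from 16.5 to 38.0 CPM in naive libraries (median 26.1) and from 15.4 to 36.2 in demyelinated ones (median 21.9). It ranged from 21.1 to 32.2 CPM in remyelination (median 23.4) and from 5.98 to 28.9 in the knockout group (median 23.0). The groups overlapped throughout, and 6 of the 7 knockout libraries lay between 19.3 and 28.9 CPM. The remaining one, knockout library 1, held 10 counts of Pdgfra. Group means were 26.6, 25.5, 23.2 and 21.1 CPM in remyelination, naive, demyelination and knockout, and no neighbours in that order differed beyond their spread (adjusted p of 0.804 to 0.967). Demyelination differed from naive by -0.16 on the log2 scale (95% interval -0.59 to 0.27), and the knockout group from its control by -0.32 (-0.75 to 0.10, adjusted p = 0.749). Without naive library 1 and knockout library 1 the means of these groups were 27.0 ± 7.11 and 23.6 ± 3.15 CPM (n = 6).

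Cspg4 (ENSMUSG00000032911.7), the NG2 chondroitin sulphate proteoglycan, had its highest mean in the knockout group and its lowest in naive brain, 18.4 ± 3.84 and 14.6 ± 4.79 CPM. Naive libraries ranged from 9.45 to 23.8 CPM, demyelinated ones from 12.2 to 22.5, remyelinating ones from 10.8 to 18.9 and knockout ones from 11.7 to 22.1. The ranges overlapped widely, and no comparison passed. The knockout group exceeded its control by 0.28 on the log2 scale (-0.11 to 0.66, adjusted p = 0.752) and naive by 0.32 (-0.07 to 0.72, adjusted p = 0.369). Pdgfra and Cspg4 thus had estimates of opposite sign in both comparisons, neither past the threshold.

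Ptprz1 (ENSMUSG00000068748.8) encodes a receptor-type tyrosine phosphatase that binds pleiotrophin and is itself a carrier of chondroitin sulphate chains. It was the best counted marker, with 16085 counts over the 28 libraries, and its intervals were the narrowest. Means were 272 ± 28.9 CPM in naive, 279 ± 32.7 in demyelination, 284 ± 26.4 in remyelination and 259 ± 54.0 in the knockout group. Demyelination differed from naive by 0.04 on the log2 scale (-0.19 to 0.26), a fold of 0.88 to 1.20. The knockout group differed from its control by -0.13 (-0.35 to 0.09, adjusted p = 0.816). The 2 lowest libraries of all 28 were knockout library 1, at 145 CPM, and naive library 1, at 214. Without them the knockout mean was 278 ± 22.6 CPM and the naive mean 282 ± 14.7, which leaves 4 group means between 278 and 284 CPM.

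Vcan, Tnr and Matn4 encode proteins of the extracellular matrix. Vcan (ENSMUSG00000021614.17), the proteoglycan versican, had 9.81 to 26.1 CPM in naive libraries, 10.5 to 20.4 in demyelinated, 9.14 to 21.6 in remyelinating and 4.13 to 15.8 in knockout libraries. Its lowest value, 4.13 CPM from 8 counts, was in knockout library 3. The knockout mean, 11.3 ± 3.72 CPM, lay below the naive mean of 16.9 ± 5.45, a log2 fold change of -0.58 (SE 0.243, interval -1.07 to -0.09). This did not pass over all genes (adjusted p = 0.179), and the groups overlapped.

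Tnr (ENSMUSG00000015829.14), the matrix glycoprotein tenascin-R, had means of 72.8 ± 13.5, 64.7 ± 10.1, 61.9 ± 8.36 and 64.0 ± 7.21 CPM in naive, demyelination, remyelination and knockout. Naive libraries spread from 55.2 to 88.9 CPM and covered most of the range of the other groups. The largest estimate, remyelination against naive, was -0.23 (-0.48 to 0.02, adjusted p = 0.519). Tnr was the only marker whose deposited estimates were not whole numbers within 0.005, in 28 of 28 libraries, whereas those of the other 9 were whole in all 28. In the GENCODE M21 annotation 3 other genes overlap Tnr, 2 of them on the same strand, and 1 of the 3, Gm38039, was among the genes tested. RSEM can divide reads between genes, and whether reads of Tnr were shared with another gene was not tested, so its values are reported as uncertain.

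Matn4 (ENSMUSG00000016995.18), the adaptor protein matrilin-4, had its lowest values in naive brain. Naive libraries ranged from 1.58 to 7.66 CPM (median 3.26), demyelinated ones from 4.30 to 9.01 (median 7.29), remyelinating ones from 4.23 to 7.88 (median 5.69) and knockout ones from 2.04 to 9.39 (median 5.93). Of the 7 naive libraries 5 lay below the lowest demyelinated library and the other two inside its range. The mean was 3.90 ± 2.36 CPM in naive and 6.78 ± 1.90 in demyelination, a log2 fold change of 0.79 (SE 0.341, interval 0.10 to 1.48). It did not pass over all genes (adjusted p = 0.288). Matn4 rested on few counts, 340 in all 28 libraries and 2 in the lowest naive library, which is under the floor of 3, and its interval for demyelination reached from 1.07-fold to 2.78-fold. The protein-coding gene Rbpjl overlaps it on the opposite strand, and reads of the pair cannot be told apart if strand was not used. Rbpjl itself was not among the genes tested.

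Pcdh15 and Lhfpl3 encode membrane proteins. Protocadherin 15 is a cadherin best known from the tip links of inner ear hair cells, and Lhfpl3 belongs to the family of tetraspan proteins of which another member accompanies protocadherin 15 in those cells. Pcdh15 (ENSMUSG00000052613.17) ranged from 14.5 to 37.5 CPM in naive libraries (median 29.1) and from 13.5 to 34.6 in demyelinated ones (median 19.1). It ranged from 16.4 to 26.6 CPM in remyelination (median 20.1) and from 11.0 to 22.1 in the knockout group (median 15.2). Of the naive values, 14.5 and 21.8 CPM lay inside the knockout range and the other 5 above it. The means in naive, demyelination, remyelination and knockout were 27.5 ± 8.32, 21.4 ± 6.98, 21.4 ± 3.62 and 15.7 ± 3.95 CPM. No neighbours in this order differed past the threshold (adjusted p of 0.464, 0.998 and 0.642).

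Pcdh15 was lower in the knockout group than in naive brain, with a log2 fold change of -0.81 (SE 0.203, interval -1.22 to -0.40), a fold of 0.57 and an adjusted p of 0.0206. The knockout group also gave -0.45 against its control in remyelination (adjusted p = 0.642) and -0.46 against demyelination (adjusted p = 0.405), neither of which passed. Demyelination and remyelination differed from naive by -0.35 and -0.36 (adjusted p of 0.464 and 0.54). The call against naive was lost when naive library 2 (adjusted p = 0.0711), naive library 5 (0.0526), knockout library 6 (0.0572) or knockout library 7 (0.0554) was left out. With any other of the 14 libraries left out it held, and without naive library 1 and knockout library 1 together the log2 fold change was -0.83 (adjusted p = 0.0181). In the GENCODE M21 annotation 7 other genes overlap Pcdh15, none of them among the genes tested, and the strand setting of the counting is not given in the sources used here.

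Lhfpl3 (ENSMUSG00000106379.2) had means of 15.8 ± 5.24, 17.4 ± 4.87, 16.8 ± 2.52 and 12.5 ± 4.92 CPM in naive, demyelination, remyelination and knockout. The knockout libraries reached from 5.19 to 18.5 CPM and the remyelinating controls from 13.2 to 19.8. Of the 7 knockout libraries 3 lay below the lowest control and 4 inside the control range. The differences of the knockout group were -0.45 from the control (-0.93 to 0.02, adjusted p = 0.677) and -0.50 from demyelination (-0.98 to -0.02, adjusted p = 0.435). From naive the difference was -0.37 (-0.86 to 0.11, adjusted p = 0.404). None passed. Naive library 1 was the lowest of its group, at 8.67 CPM, and knockout library 1 the highest of its own, at 18.5. Without them the means were 17.0 ± 4.59 in naive and 11.5 ± 4.55 CPM in the knockout group (n = 6).

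**Figure D4:**
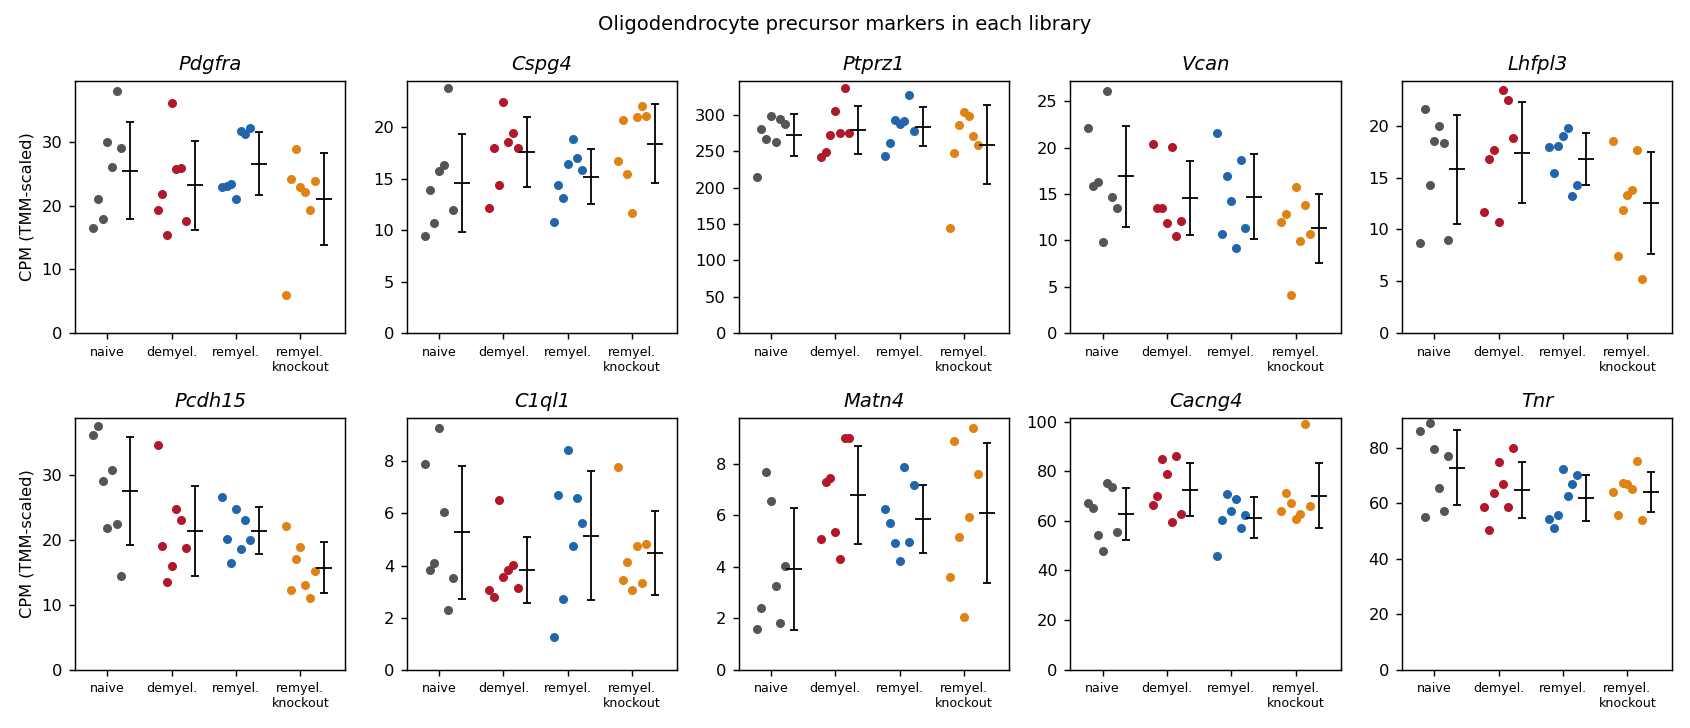
CPM of each marker in each of 28 libraries by group, with the mean ± SD over 7 libraries beside the points and a vertical axis that starts at 0 for each gene. The groups overlap for every gene. Knockout library 1 is the low point of Pdgfra (5.98 CPM) and Ptprz1 (145 CPM), and Pcdh15 is lowest on average in the knockout group.

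C1ql1 and Cacng4 encode proteins of the synapse. C1ql1 (ENSMUSG00000045532.6) is a secreted C1q-like protein that binds an adhesion receptor on neurons. It was the least counted marker, with 271 counts in all. Means were 5.27 ± 2.54, 3.84 ± 1.26, 5.15 ± 2.48 and 4.48 ± 1.61 CPM, and the lowest remyelinating library, at 1.25 CPM, held 3 counts. Without knockout library 1 the knockout mean was 3.93 ± 0.762 CPM. No comparison passed, and the interval for demyelination against naive, 0.45-fold to 1.24-fold, was wide.

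Cacng4 (ENSMUSG00000020723.4) is an auxiliary subunit of AMPA-type glutamate receptors, through which precursors receive synaptic input from axons. Means were 62.7 ± 10.4, 72.6 ± 10.7, 61.3 ± 8.32 and 70.1 ± 13.1 CPM in naive, demyelination, remyelination and knockout. The ranges, 48.0 to 75.4, 59.7 to 86.1, 45.7 to 70.9 and 60.7 to 98.9 CPM, overlapped. Remyelination differed from demyelination by -0.24 on the log2 scale (-0.50 to 0.01, adjusted p = 0.776), the smallest p of any marker in that comparison.

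For most markers, as for most genes tested, the intervals were narrow enough to bound the change. In demyelination against naive, the 95% interval lay within a 2-fold change in either direction for 8 of 10 markers, and the exceptions were C1ql1 and Matn4. Of all genes, 85.5% had such an interval there. The count was 9 of 10 for remyelination against naive, 9 for remyelination against demyelination and 10 for the knockout group against its control. All genes had 86.9, 88.1 and 87.7% in these comparisons. Against naive, 7 of 10 intervals of the knockout group lay within a 2-fold change, beside 83.8% of all genes. A p that misses the threshold is therefore not a sign of equal levels. In demyelination the interval reached past 1.5-fold for 7 of 10 markers.

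As a set, the 10 markers moved together from library to library no more than other pairs of genes did. After each group's mean was subtracted, Pearson's r of log2 CPM over the 28 libraries had a median of 0.00 over the 45 pairs of markers, with 20 positive, beside a median of 0.00 over all pairs of genes tested. The highest was that of Pdgfra with Ptprz1, 0.80, which became 0.45 without naive library 1 and knockout library 1. Pdgfra with Cspg4 had 0.47, and 0.54 without them. The lowest was Pcdh15 with Matn4, at -0.46. These values describe libraries whose depth and composition differ as given above and carry no test. For low markers counting error was a large part of the spread, so their r near 0 does not show that they moved apart. C1ql1 in demyelination had a coefficient of variation of 32.7%, beside 36% from counting alone.

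**Figure D5:**
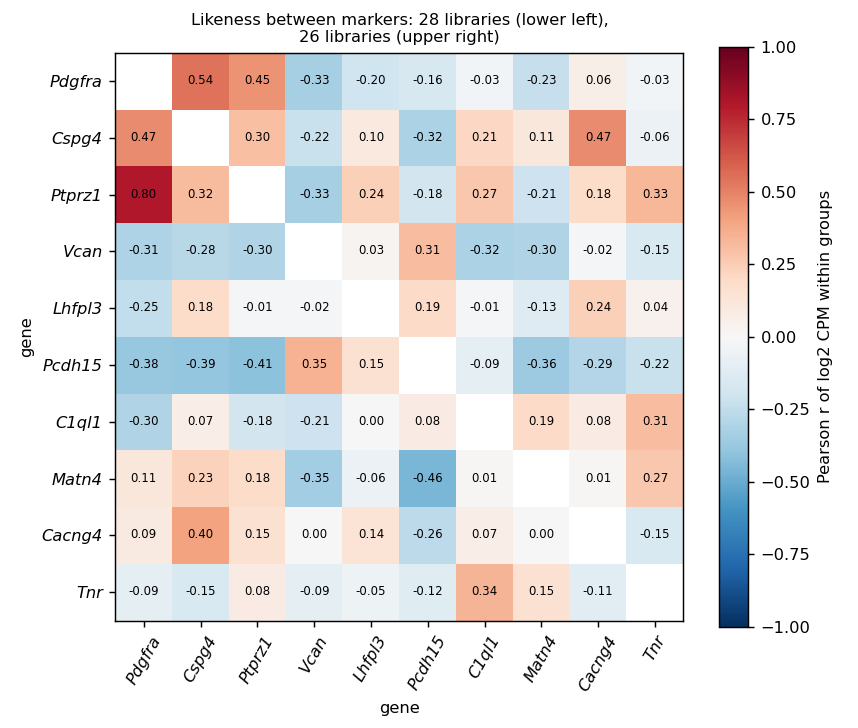
Pearson's r of log2 CPM between pairs of markers after subtraction of group means, over all 28 libraries (lower left) and over 26 libraries without naive library 1 and knockout library 1 (upper right). Colours run from blue at -1 to red at 1. The value of Pdgfra with Ptprz1 is 0.80 in the lower and 0.45 in the upper triangle, and most other pairs are pale.

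The genes whose levels over all 28 libraries were most like those of a marker were mostly not precursor markers. Only Ptprz1, named for Pdgfra, was among the 10. C1ql1 and Matn4 were too low for this description, which was limited to group means of at least 10 CPM. For Pdgfra they were Kdm1a (r = 0.81), Pcdha4 (0.81) and Ptprz1 (0.80), which became 0.66, 0.43 and 0.46 without the 2 libraries named above. For Cspg4 they were Gm2a (0.71), Trf (0.70) and Plbd2 (0.69). Trf, transferrin, is in the list of mature oligodendrocyte genes used here, but it moved against most of that list. It was the 1 mature gene called higher in demyelination against naive (log2 fold change 0.49, adjusted p = 0.0251, edgeR), where 16 were called lower. For Pcdh15 they were Trove2 (0.78), Cdh18 (0.78) and Osbpl8 (0.77), with 0.77, 0.75 and 0.76 without those libraries. For Ptprz1 they included Gpr158 (0.88) and Ltn1 (0.86), which became 0.67 and 0.44. Vcan was most like D3Ertd751e (0.73), Lhfpl3 most like Dock10 (0.73), Cacng4 most like Tmem63b (0.70) and Tnr most like Nf1 (0.66).

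Other genes of the lineage also gave few calls outside the mature list. At an unadjusted p under 0.05 their share lay above that of all genes in some comparisons and below it in others. Of 20 further precursor and lineage genes, among them Olig1, Olig2, Sox10 and Gpr17, 16 were tested. None was called in demyelination or remyelination against naive, between these stages, or between knockout and control. Their medians were -0.04, -0.06, -0.08 and 0.06. At an unadjusted p under 0.05, 5 of 16 passed in demyelination against naive, where all genes had 13.3%. In the knockout group against demyelination 4 of 16 passed, where all genes had 10.7%. There were 1 in remyelination against naive and 2 against demyelination, beside 10.4 and 6.65% of all genes. The knockout group had 2 against naive and 0 against its control, beside 18.9 and 7.49%. Serpine2, a serpin secreted by glia, had the smallest p in demyelination, at 211 ± 19.9 against 172 CPM (log2 fold change 0.29, adjusted p = 0.109). Rlbp1, a retinaldehyde-binding protein, rose in the knockout group against naive (10.6 ± 2.31 against 4.79 CPM, log2 fold change 1.12, SE 0.298, adjusted p = 0.0285). That call was lost without naive library 1, 2 or 5 or knockout library 6 or 7 (adjusted p of 0.0505 to 0.0673). Olig2, the transcription factor of the lineage, had 25.8 ± 8.23 CPM in the knockout group and 19.8 in its control (adjusted p = 0.663).

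Of 16 genes of newly formed oligodendrocytes 14 were tested, and none passed in any comparison. In demyelination against naive 9 were lower and 5 higher, with a median log2 fold change of -0.12, and in remyelination against naive 5 were lower and 9 higher, with a median of 0.08. At an unadjusted p under 0.05 there were 5 of 14 in demyelination and 3 in remyelination against naive, where all genes had 13.3 and 10.4%. There were 2 in the knockout group against naive, 5 against demyelination and 0 against its control, beside 18.9, 10.7 and 7.49% of all genes. The 2 genes with the smallest p in demyelination were both higher. Bcas1, a marker of oligodendrocytes that have begun to make myelin, had 109 ± 28.6 CPM in demyelination, 110 ± 13.7 in remyelination and 82.7 in naive (adjusted p of 0.183 and 0.245). Itpr2, a calcium channel of the same cells, had 56.7 ± 6.26, 54.3 ± 12.9 and 42.4 CPM (adjusted p of 0.178 and 0.397). In the knockout group against naive 2 of 20 mature genes were lower, Anln (-1.09, adjusted p = 0.00668) and Ermn (-0.75, adjusted p = 0.0273), the latter not without naive library 2, 3 or 5 or knockout library 3, 6 or 7.

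Among 21 cell cycle genes, of which 15 were tested, Ccnd1 was called. Cyclin D1 drives the exit from G1 and is made by dividing precursors among other cells. It rose from 69.4 CPM in naive to 97.2 ± 11.9 in demyelination (log2 fold change 0.48, SE 0.12, adjusted p = 0.0174), a call lost without demyelination library 3 (0.0696). It was lower by 0.51 in the knockout group than in demyelination (log2 fold change -0.51, adjusted p = 0.0279), lost without demyelination library 2, 3 or 6 or knockout library 2, 3, 4 or 5. Remyelination, at 71.4 ± 14.2 CPM, differed from demyelination by -0.45 (adjusted p = 0.0912, edgeR), a difference that DESeq2 called (adjusted p = 0.0373). The median of the 15 genes was 0.20 in demyelination against naive, with 11 higher and 4 lower. Microglia, which also divide, moved in the same comparison, as given below, and the part of either cell type in the Ccnd1 value was not tested.

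Of 20 genes of the platelet-derived growth factor pathway 18 were tested, and 0 were called in demyelination or remyelination. Pdgfa, the ligand of Pdgfra, had 90.7 CPM in demyelination and 80.2 ± 7.06 in remyelination (adjusted p = 0.869). In the knockout group against naive Pik3r1, a regulatory subunit of phosphoinositide 3-kinase, fell (log2 fold change -0.51, adjusted p = 0.0324) and Mapk3, the kinase ERK1, rose (0.45, adjusted p = 0.0498). The call of Pik3r1 was lost without naive library 2, 4, 5 or 7 or knockout library 2, 6 or 7. That of Mapk3 held only without naive library 3 or 6 or knockout library 1 or 4.

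None of the 16 tested matrix partners of Vcan and Tnr, such as the other brain proteoglycans, link proteins and tenascin-C, passed in any comparison. Cd44, a hyaluronan receptor, had the smallest p in demyelination, at 24.4 ± 5.82 against 14.6 CPM (log2 fold change 0.76, adjusted p = 0.0615, edgeR), and DESeq2 called it (adjusted p = 0.0338). Adamts4, a protease that cleaves such proteoglycans, had 11.2 ± 4.25 CPM in demyelination, 18.5 in naive and 20.5 ± 4.57 in remyelination (adjusted p of 0.182 and 0.166). None of 15 ligands, binding partners and substrates of Ptprz1 passed. Mdk, the ligand midkine, had 31.3 ± 4.84 CPM in the knockout group and 22.5 in its control (log2 fold change 0.49, adjusted p = 0.534).

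Of 13 tested AMPA receptor subunits and relatives of Cacng4, 2 were called, in the knockout group against naive. Gria2, the subunit that sets calcium permeability, fell (455 ± 41.9 against 605 CPM, log2 fold change -0.41, adjusted p = 0.0114), a call lost without knockout library 7 (0.0512). Cacng3, another auxiliary subunit, rose (128 ± 11.1 against 95.3 CPM, 0.43, adjusted p = 0.0285), lost without naive library 2, 3, 5 or 7 or knockout library 3 or 7. Of 15 tested relatives of C1ql1, Matn4, Pcdh15 and Lhfpl3, Pcdh7 was called. This protocadherin fell in the same comparison from 160 to 108 ± 23.7 CPM (log2 fold change -0.57, SE 0.108, adjusted p = 0.00127), and the call held with each of the 14 libraries left out.

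Markers of other cell types moved in the same comparisons. Of 12 microglial markers, 9 rose in demyelination against naive, with summed levels of 524 to 729 against 222 to 317 CPM, and 7 rose in remyelination. Tyrobp, a signalling adaptor of microglia, rose by 2.21 in demyelination (adjusted p = 1.09e-09). Gfap, the intermediate filament of astrocytes, rose by 1.82 in demyelination and by 1.34 in remyelination (adjusted p of 9.07e-09 and 4.13e-05), and was the single call among 12 astrocyte markers, whose sums overlapped at 4410 to 5250 and 4360 to 5030 CPM. Mural cell markers, relevant to Cspg4, summed to 113 to 177 CPM in naive and 138 to 184 in demyelination, with no call among 7 tested. Meningeal fibroblast markers, relevant to Pdgfra, summed to 873 to 1200 and 744 to 1210 CPM, and none of 10 tested passed. In remyelination Apod, which these cells and oligodendrocytes both make, rose against naive by 0.66 (adjusted p = 8.88e-05). Of 11 cerebellar genes 10 were lower in remyelination than in naive brain. None of the 11 passed, but 7 had an unadjusted p under 0.05, against 10.4% of all genes.

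In the knockout group against naive, where Pcdh15 was called, 7 of 12 microglial markers rose and 1 fell, and Gfap rose by 1.59 (adjusted p = 1.42e-06). Vtn was called among mural markers (0.52, adjusted p = 0.0486), although only with naive library 6 or 7 or knockout library 1 or 2 left out did it stay so. Apod and Ptgds were called among meningeal markers (0.50 and 0.45, adjusted p of 0.00448 and 0.0104). Of 12 neuronal markers Gad2, a GABA-synthesising enzyme, fell (-0.38, adjusted p = 0.0307), with summed levels of 6100 to 6950 against 6180 to 6930 CPM. Reln rose among interneuron markers (0.39, adjusted p = 0.0338), and Slc17a6, a glutamate transporter of neurons, fell in the olfactory bulb list (-0.44, adjusted p = 0.00727). The call of Gad2 held only without naive library 3 or 6 or knockout library 1, 3, 4 or 5, and that of Reln was lost without naive library 2, 3 or 5 or knockout library 3, 5, 6 or 7. None of 11 cerebellar, 10 endothelial and 13 mitochondrial genes passed. At an unadjusted p under 0.05 there were 6, 1 and 2 of these, beside 18.9% of all genes. The part of these cells in the Pcdh15 value was not tested.

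Between knockout and control remyelination, where no precursor marker passed, the marker lists held a single call. Cx3cr1, a chemokine receptor of microglia whose promoter drives the Cre recombinase here, had 25.8 ± 11.7 against 48.4 CPM (log2 fold change -0.89, adjusted p = 0.0365). That call held only with remyelination library 4 or 7 or knockout library 1, 5 or 7 left out. The part of the Cx3cr1-CreER construct in the Cx3cr1 value was not tested.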

How the data were processed

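Each of the 28 deposited tables holds RSEM gene results of a single whole-brain library. The authors deposited expected counts per gene, which are estimates and not normalised, per the file headers. Per the labels' protocols, TRIzol was used for RNA and the QuantSeq 3′ FWD kit for libraries. Per the submitters' processing notes the build was GRCm39 and the tools were STAR, RSEM, edgeR, cutadapt and FastQC. For versions, settings, annotation and strand there is no statement in the sources used here. Symbols came from GENCODE M21 (GRCm38) by identifier, for 52081 of 55414 genes, and genes without one held 10.76% of counts. No coordinates are given, because the builds differ.

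Counts were rounded, normalised by TMM, filtered by filterByExpr (12423 genes kept) and tested with the edgeR 4.0.16 quasi-likelihood test (R 4.3.3) in 1 fit of all 28 libraries. P-values were adjusted by Benjamini-Hochberg over all genes tested, and the threshold was 0.05. Intervals are 95% and come from the fit. The smallest chi-square per degree of freedom between libraries of a group was 2.53, so no such pair differed by counting error alone. Separate libraries made from the same RNA would not be found this way. The common biological coefficient of variation was 19.5%. The labels give no batch. DESeq2 1.42.0 and other alternatives are described in the closing section. The markers and all gene lists were chosen with earlier results of these data known. All 10 markers are named. List genes are named where they passed (the 5 with the smallest p if more did), and otherwise up to 2 with the smallest p. The 3 genes most like a marker were taken by Pearson's r of log2 CPM with a prior count of 2. All 3 are named for Pdgfra, Cspg4 and Pcdh15 and the first alone for Vcan, Lhfpl3, Cacng4 and Tnr, and 1 for Ptprz1 is not reported here. Libraries with the same replicate number formed 42 pairs, with a correlation of deviations above 0.1 in 5 (median 0.04, range -0.13 to 0.3). Of the 28 libraries, 10 correlated best with a library of their own number. Whether these libraries share more than the number was not tested.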

Additional observations from a re-analysis of the deposited data

Results flagged for a closer look

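The CPM of each marker in each group of 7 libraries, 40 groups in all, was searched for a library far from the rest by Dixon's ratio of the gap to the range, at the 95% critical value. Chance alone marks about 1 group in 20. There were 6 such values, 4 of them in the 2 libraries with extreme shares of the most abundant gene. Knockout library 1 was low for Pdgfra, at 5.98 CPM against 19.3 in the nearest library, and for Ptprz1, at 145 against 247 CPM. It was high for C1ql1, at 7.78 against 4.84 CPM, from 13 counts. Naive library 1 was low for Ptprz1, at 214 against 263 CPM. Demyelination library 3 was high for C1ql1, at 6.52 against 4.01 CPM, from 14 counts. Knockout library 6 was high for Cacng4, at 98.9 against 71.1 CPM.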

How the results depend on the processing

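The alternatives were other scalings, filters and tests, fits of the 2 compared groups only, a replicate block, covariates for the share of the most abundant gene or of mitochondrial transcripts, and leaving out libraries. Under all of them 0 of 10 markers were called in the comparisons among naive, demyelination and remyelination, and in the knockout group against its control and against demyelination. Pcdh15 against naive stayed called under the 10 alternatives that did not leave out a single library, with adjusted p from 0.00841 to 0.0317 (0.00914 by DESeq2, 0.0092 with the replicate block). The count of markers there ranged from 0 to 1 with single libraries left out. In the test of any difference it was 1, Pcdh15, with the most abundant gene as covariate, and 0 to 1 with single libraries left out. DESeq2 gave 1 marker at an unadjusted p under 0.05 in demyelination against naive, 0 in remyelination against naive and against demyelination, and 1 and 2 in the knockout group against its control and demyelination, where 5 and 2 markers had no adjusted p.

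Counts over all genes moved more. With library totals the knockout group against naive had 253 calls in place of 403. DESeq2 gave 130 for remyelination against naive (78 in the fit used), 73 against demyelination (48), 11 for knockout against control (6) and 503 for any difference (305). Without a filter these were 122 for remyelination against naive, 28 for knockout against control, 163 for knockout against demyelination (75) and 579 for any difference. The replicate block gave 147 for remyelination against naive, 608 for knockout against naive and 471 for any difference, and 10 of 28 libraries correlated best with their own number. Without naive library 1 and knockout library 1 the knockout group against naive had 644. With the most abundant gene as covariate there were 404 for demyelination against naive (249), 138 for remyelination against naive, 752 for knockout against naive and 551 for any difference. With the mitochondrial share there were 422 and 163 against naive in demyelination and remyelination. With single libraries left out, counts ranged from 173 to 312 in demyelination against naive, 58 to 157 in remyelination against naive, 34 to 56 in remyelination against demyelination and 4 to 8 in knockout against control. They ranged from 147 to 737 in knockout against naive, 48 to 93 in knockout against demyelination and 209 to 469 for any difference. The extremes of 737 and 469 were without knockout library 1, 157 without remyelination library 1 and 147 without knockout library 7. Among the other named genes, library totals ended the call of Cx3cr1 between knockout and control (adjusted p = 0.0816, edgeR) and those of Ermn, Pik3r1, Mapk3, Vtn and Gad2 against naive. Fits of 2 groups ended those of Cx3cr1 (0.324), Pik3r1, and Ccnd1 in knockout against demyelination, and the replicate block that of Cx3cr1 (0.0569). Calls against naive were also lost for Mapk3 and Reln without a filter, for Mapk3 and Vtn with the mitochondrial share, and for Vtn and Gad2 without naive library 1 and knockout library 1. Other named genes gained a call. Against naive, Anln passed in remyelination under 5 of the alternatives that left out no single library (adjusted p of 0.0195 to 0.0449), Cd44 passed in demyelination under 6 (0.0338 to 0.0438), and Bcas1 passed in remyelination with the mitochondrial share (0.0286). Ccnd1 passed in remyelination against demyelination by DESeq2 (0.0373). With single libraries left out, 0 to 2 mature genes passed in remyelination against naive. Direction was followed through the alternatives for markers with an unadjusted p under 0.05 and for the named list genes called. No alternative reversed any of these, and the direction of other named changes was not followed. No group mean of a marker moved by more than its SD on library totals. Depth limits C1ql1 and Matn4 most.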
